A study of Homo sapiens with 16 samples.

Results

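The nuclear genes of the respiratory chain and the ATP synthase were examined in PC9 cells across 8 lists of chromatin regions. Members were taken by gene name: names starting with NDUFA, NDUFB, NDUFC, NDUFS, NDUFV, NDUFAF, UQCR, COX with a digit, or ATP5, together with CYCS and CYC1. Names that end in P and digits (copies of a gene) and names with a hyphen were left out. Such a name was held by 104 human genes. Of these, 74 were assigned a region in at least 1 list, out of 18284 genes with a region in all, and 30 were in no list. They accounted for 177 of 59617 regions.

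The study asks how PKM2, a form of pyruvate kinase, and the making of fatty acids bear on the response of lung cancer cells to osimertinib, a drug that blocks mutant EGFR. PC9, an established line of human non-small cell lung cancer, carries such a mutation. The cells analysed were unedited (labelled "Wild type cell") and were given osimertinib or DMSO, the vehicle. KDM1A (also called LSD1, an enzyme that takes methyl groups off histone H3) and the histone marks H3K4me3, H3K4me1 and H3K9me3 were profiled, with 1 library per target and treatment. The sources used here give neither the dose and time of osimertinib nor the type of binding assay. No difference between osimertinib and vehicle therefore has a replicate check, and no test between them was possible. Intervals are exact Clopper-Pearson 95% intervals over genes and cover counting error only, since neighbouring genes can share a region.

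Oxidative phosphorylation takes electrons from NADH through complex I, passes them by way of complex III and cytochrome c to oxygen at complex IV, and uses the proton gradient so formed to drive the ATP synthase. Most subunits, and the assembly factors that put them together, are encoded in the nucleus and must be made in balance. Their promoters are usually active in every cell type, and H3K4me3 is a mark of active promoters. H3K4me1 is best known at enhancers and promoter flanks, and H3K9me3 marks silenced chromatin. NRF1, the ETS factor GABP and YY1 are known regulators of this gene group.

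Regions were all 2 kb wide. The deposited signal is a height per region whose scaling is not stated, so it served to rank regions within a list, with rank 1 the strongest. A signal percentile is the percentage of the list's regions with the same or a weaker signal, the region itself included. Ranks from the osimertinib and vehicle lists are set side by side and show no change by themselves. The H3K4me3 lists held 13285 regions with osimertinib and 11621 with vehicle, and the KDM1A lists 8882 and 4731 in that order of treatment. In both lists H3K4me3 was at the promoters of all 6 epithelial marker genes examined, with KRT8 at ranks 7 with osimertinib and 5 with vehicle. Neither of 2 lung markers (NKX2-1 and SFTPB) had one. None of the 3 fibroblast and 3 endothelial markers examined had one in either list.

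The promoters below are those of members whose class is described first. A promoter sequence runs from 250 bases before to 50 after the RefSeq start (GRCh38.p14), and 85 of the 104 members had one. Capitals mark matches, on either strand, to NRF1 (GCGCA, any base, then GCGC), ETS (CCGGAAG), YY1 (AAGATGGC), SP1 (GGGCGG), CREB (TGACGTCA) or TATA-box (TATAAA) letters. The first set had an H3K4me3 promoter region with osimertinib and none under their name with vehicle: NDUFS6 at chr5:1801157-1801456 (plus strand), CYCS at chr7:25125211-25125510 (minus strand) and NDUFS1 at chr2:206159395-206159694 (minus strand).
NDUFS6: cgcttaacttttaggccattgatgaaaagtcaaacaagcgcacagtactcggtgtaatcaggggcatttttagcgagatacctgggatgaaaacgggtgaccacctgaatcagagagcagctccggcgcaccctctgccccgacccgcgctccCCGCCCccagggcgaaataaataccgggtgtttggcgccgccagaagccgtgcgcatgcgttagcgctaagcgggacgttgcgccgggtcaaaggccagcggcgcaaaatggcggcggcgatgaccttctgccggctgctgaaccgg
CYCS: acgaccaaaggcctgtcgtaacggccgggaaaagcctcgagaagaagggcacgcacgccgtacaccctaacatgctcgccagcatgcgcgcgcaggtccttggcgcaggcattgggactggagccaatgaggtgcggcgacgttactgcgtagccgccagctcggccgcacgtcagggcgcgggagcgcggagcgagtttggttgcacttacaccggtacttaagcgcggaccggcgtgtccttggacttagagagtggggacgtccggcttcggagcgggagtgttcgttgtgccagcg
NDUFS1: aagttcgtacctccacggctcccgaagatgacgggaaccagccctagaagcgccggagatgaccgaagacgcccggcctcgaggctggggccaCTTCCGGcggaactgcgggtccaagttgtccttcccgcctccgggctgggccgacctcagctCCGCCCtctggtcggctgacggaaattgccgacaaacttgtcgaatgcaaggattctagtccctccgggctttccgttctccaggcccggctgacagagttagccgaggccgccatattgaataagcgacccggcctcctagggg

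The next set had an H3K4me3 promoter region with vehicle and none under their name with osimertinib: NDUFA11 at chr19:5903741-5904040 (minus strand), COX14 at chr12:50111986-50112285 (plus strand) and COX7A2L at chr2:42361168-42361467 (minus strand).
NDUFA11: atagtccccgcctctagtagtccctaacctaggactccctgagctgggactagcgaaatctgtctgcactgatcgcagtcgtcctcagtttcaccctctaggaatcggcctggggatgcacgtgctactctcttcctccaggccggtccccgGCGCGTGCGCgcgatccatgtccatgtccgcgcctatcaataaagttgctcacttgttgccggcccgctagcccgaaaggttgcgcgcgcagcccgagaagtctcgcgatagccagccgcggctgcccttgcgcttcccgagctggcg
COX14: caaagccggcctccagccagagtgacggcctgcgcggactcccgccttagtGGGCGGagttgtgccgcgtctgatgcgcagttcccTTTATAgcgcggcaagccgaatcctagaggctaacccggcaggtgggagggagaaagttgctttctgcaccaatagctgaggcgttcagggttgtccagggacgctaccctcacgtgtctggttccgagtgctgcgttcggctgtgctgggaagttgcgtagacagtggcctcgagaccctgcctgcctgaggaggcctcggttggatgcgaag
COX7A2L: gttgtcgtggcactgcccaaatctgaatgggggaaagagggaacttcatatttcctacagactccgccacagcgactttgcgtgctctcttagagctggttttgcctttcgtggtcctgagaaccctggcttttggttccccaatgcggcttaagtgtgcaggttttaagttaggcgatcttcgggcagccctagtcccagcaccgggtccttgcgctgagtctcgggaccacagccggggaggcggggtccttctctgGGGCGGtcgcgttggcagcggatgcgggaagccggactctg

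The last set ranked high in both H3K4me3 lists: NDUFA3 at chr19:54102605-54102904 (plus strand) and COX4I1 at chr16:85799445-85799744 (plus strand).
NDUFA3: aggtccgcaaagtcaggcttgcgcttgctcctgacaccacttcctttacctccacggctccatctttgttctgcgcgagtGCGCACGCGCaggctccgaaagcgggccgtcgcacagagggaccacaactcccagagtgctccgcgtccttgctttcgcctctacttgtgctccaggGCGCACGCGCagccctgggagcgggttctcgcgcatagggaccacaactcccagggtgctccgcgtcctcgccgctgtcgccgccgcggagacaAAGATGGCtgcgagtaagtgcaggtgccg
COX4I1: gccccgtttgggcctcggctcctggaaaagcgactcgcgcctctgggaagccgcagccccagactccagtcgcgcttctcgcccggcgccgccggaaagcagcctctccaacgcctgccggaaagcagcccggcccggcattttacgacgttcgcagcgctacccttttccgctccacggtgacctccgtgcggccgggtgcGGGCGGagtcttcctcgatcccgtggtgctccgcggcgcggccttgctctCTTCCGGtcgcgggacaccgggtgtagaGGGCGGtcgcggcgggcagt

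NDUFA3 held a pair of NRF1 matches, at 170 and 73 bases before the start, and a YY1 match 21 bases after it. NDUFA11 also held an NRF1 match, 98 bases before the start, while CYCS held none of these letters in its window. Over the members with a sequence, NRF1 letters were in 18 of 85 promoters (21.2%), against 8.58% of 15843 protein-coding promoters and 6.28% of all 27305 RefSeq promoters. ETS letters were in 25.9% of member promoters, against 14.2% of coding and 10.7% of all promoters. YY1 letters were in 12.9% of member promoters, against 3.91% and 3.03%. SP1 letters were about as frequent in members (56.5%) as in coding promoters (58.5%), compared with 44.6% of all promoters. CREB letters were in 4.71% of member promoters, against 2.59% of coding and 1.98% of all. TATA letters were in 9.41%, against 9.63% and 12.0%. These shares are descriptions of sequence and carry no measurement of factor binding. H3K4me3 classes here go by the gene name given to a region. Of the 28 members in neither list by name, 8 had a region named for another gene within 1 kb in both lists. A further 2 had one with osimertinib only and 2 with vehicle only. The neither class is thus not a set of promoters without H3K4me3. NRF1 letters were in 3 of 9 promoters marked with osimertinib only and 2 of 11 with vehicle only. They were in 4 of 37 in both lists and 9 of 28 in neither. ETS letters were in 2 of 9, 3 of 11, 13 of 37 and 4 of 28 of the same classes, and YY1 letters in 1 of 9, 0 of 11, 4 of 37 and 6 of 28. The median GC content of member promoters was 61.0%, against 62.7% in coding promoters.

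H3K4me3 was at the promoters of 69 of 104 members under at least one treatment and of 44 under both. A promoter region, meaning one placed by the authors' annotation at most 3 kb from a start, was assigned to 55 members with osimertinib and to 58 with vehicle. With osimertinib only there were 11 (15.9%, interval 8.24% to 26.7%), beside 17.3% of all genes with an H3K4me3 promoter region in either list and 11.6% of protein-coding ones. With vehicle only there were 14 (20.3%, 11.6% to 31.7%), beside 27.5% of all genes and 27.5% of coding ones. Both lists held 44 (63.8%, 51.3% to 75.0%), beside 55.2% of all genes and 61.0% of coding ones. Each interval holds both of its background shares.

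Member signal, taken only from regions under the member's own name, lay near the middle of other promoter genes within each list. Regions at member starts that were named for a neighbour did not enter. Only such regions covered 12 member starts with osimertinib and 11 with vehicle. The median signal percentile of the 55 members with osimertinib was 67.3 (order-statistic interval 59.5 to 76.0), against 64.3 over 7088 promoter genes and 67.3 over the 5837 coding ones. With vehicle it was 60.1 (56.8 to 70.2) for 58 members, against 62.0 over 8077 promoter genes and 64.6 over the 7117 coding ones.

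**Figure D1:**
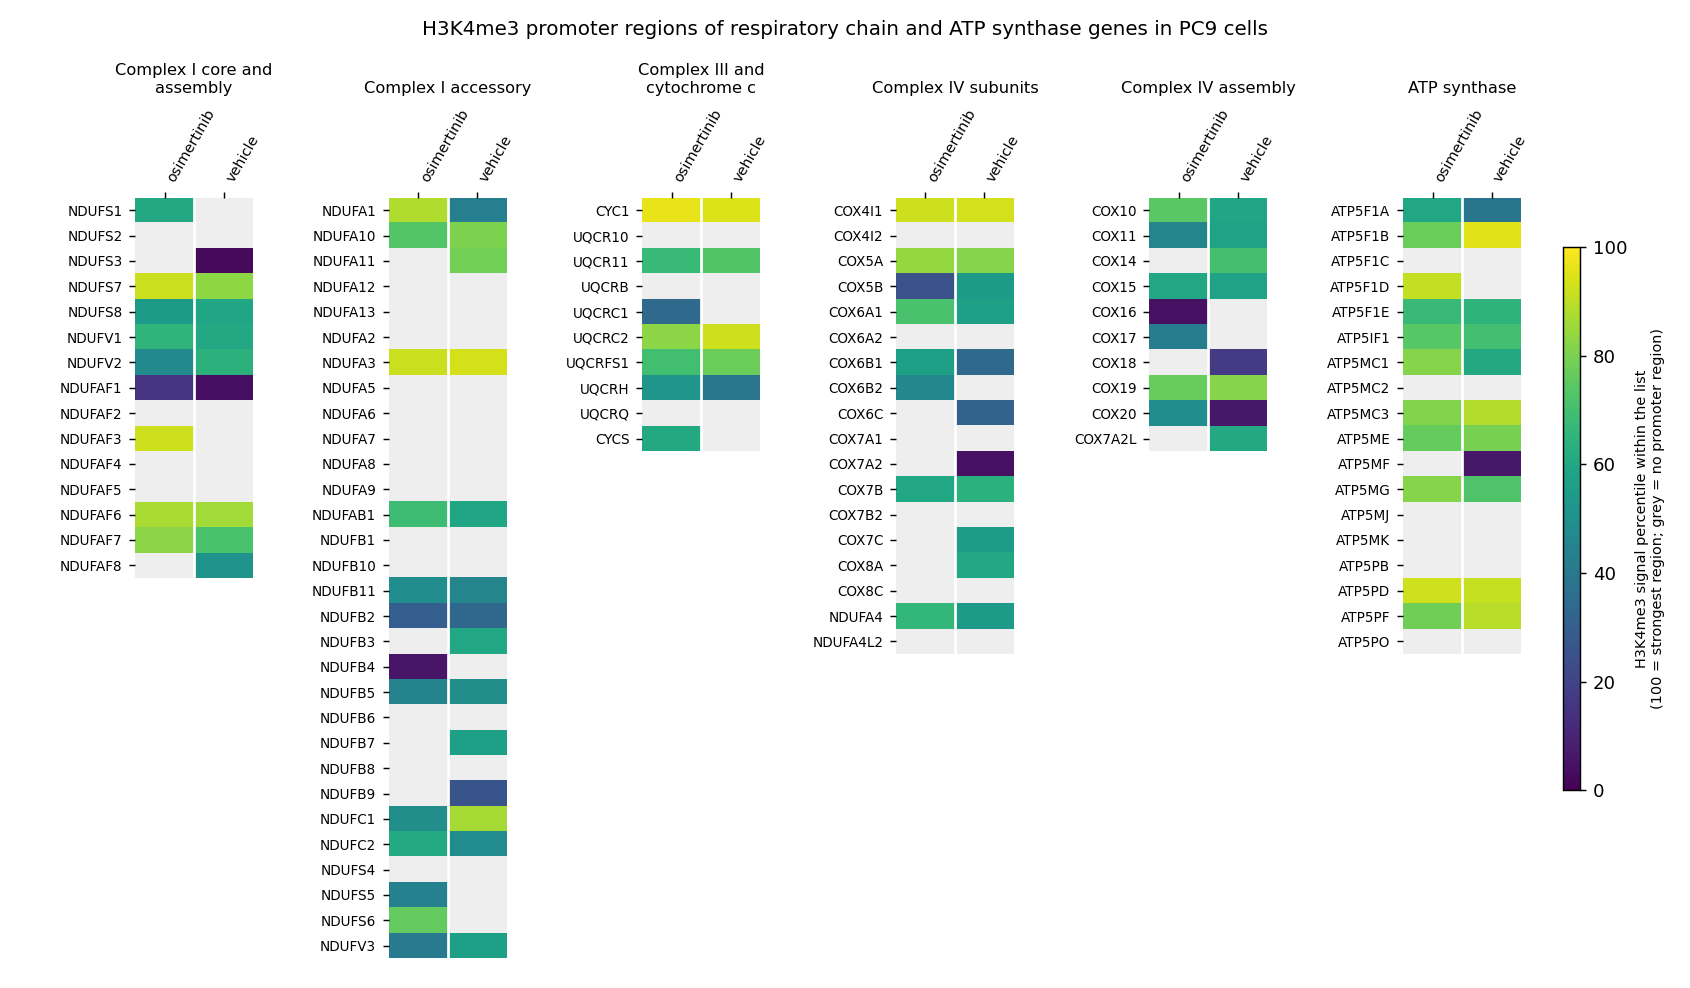
H3K4me3 promoter regions of members by role, with a column for the osimertinib list and a column for the vehicle list in each panel. Colour gives the signal percentile of the strongest promoter region within its list and grey the absence of a region under that name. CYC1, NDUFA3 and COX4I1 are near the top in both columns. Of the 35 members with no region in either list, UQCRHL, ATP5MGL and COX8BP are not drawn and the others are grey in both columns.

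The best ranked members in both lists came from several complexes. CYC1, the cytochrome c1 subunit of complex III, ranked 450 with osimertinib and 632 with vehicle. NDUFA3, an accessory subunit of complex I, ranked 1069 with osimertinib and 738 with vehicle. COX4I1, the common isoform of complex IV subunit 4, ranked 994 with osimertinib and 816 with vehicle. ATP5PD, subunit d of the peripheral stalk of the ATP synthase, ranked 958 with osimertinib and 1023 with vehicle. All of these were above the 90th percentile in both libraries. Next came NDUFS7, an iron-sulfur core subunit of complex I, at 1057 with osimertinib and 1989 with vehicle, and UQCRC2, a core protein of complex III, at 2316 with osimertinib and 902 with vehicle. The complex I assembly factor NDUFAF6 ranked 1680 with osimertinib and 1605 with vehicle. ATP5F1B, the catalytic beta subunit of the ATP synthase, ranked 3044 with osimertinib and 544 with vehicle, and had 4 H3K4me3 regions in each list. The poorest of the 44 were NDUFAF1, an assembly factor (11292 with osimertinib, 11135 with vehicle), and COX20, which helps mature COX2 (6753 with osimertinib, 10890 with vehicle). NDUFB2 (9331 with osimertinib, 7683 with vehicle) and COX5B (9988 with osimertinib, 5277 with vehicle) were the other two.

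Counts and medians by role are descriptions, and no test between roles was made. They take a gene as marked only when a region carried its own name. Members whose start was covered only under another gene's name count as unmarked. In the ATP synthase these were ATP5F1C, ATP5MK, ATP5PB and ATP5PO, and in complex III UQCR10. In complex I they were NDUFA2, NDUFA7, NDUFA13, NDUFAF2, NDUFAF5, NDUFB1 and NDUFB8. Role counts by name are therefore not counts by start. Complex I core subunits were marked in 6 of 7 cases, with 1 in the osimertinib list only, 1 in the vehicle list only and 4 in both. Complex I accessory subunits were marked in 17 of 30 cases, with 3 in the osimertinib list only, 4 in the vehicle list only and 10 in both. Complex I assembly factors were marked in 5 of 8 cases, with 1, 1 and 3 in the same classes. Complex III genes, CYC1 included, were marked in 6 of 9 cases, of which 5 were in both lists and 1 only with osimertinib. Complex IV subunits were marked in 12 of 18 cases, with 1 in the osimertinib list only, 4 in the vehicle list only and 7 in both. All 10 complex IV assembly genes were marked, 2 in the osimertinib list only, 3 in the vehicle list only and 5 in both. ATP synthase genes were marked in 12 of 18 cases, and 10 of these were in both lists. The ATP synthase genes had a median percentile of 78.3 with osimertinib (n = 11) and 72.4 with vehicle (n = 11). Complex I accessory subunits had a median of 49.6 with osimertinib (n = 13) and 56.8 with vehicle (n = 14). The remaining 3 names, UQCRHL, ATP5MGL and COX8BP, were marked in neither list.

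**Figure D2:**
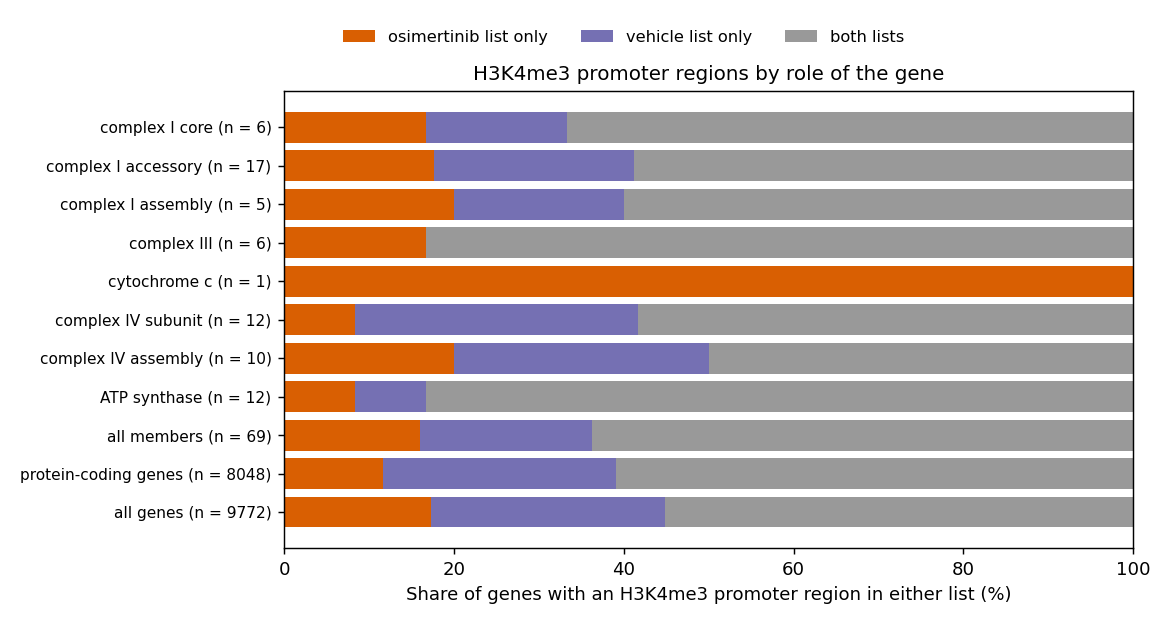
Share (%) of members with an H3K4me3 promoter region under their own name in either list, by role, with protein-coding genes and all genes below. Each bar is split into genes that had it with osimertinib only, with vehicle only or in both lists. Among all 69 marked members 15.9% were in the osimertinib list only and 20.3% in the vehicle list only; n is the number of marked genes in each bar.

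The 11 members marked with osimertinib only came from complexes I, III and IV, cytochrome c and the ATP synthase. In complex I they were NDUFAF3, an assembly factor (rank 1036), NDUFS6 (3188), the large iron-sulfur subunit NDUFS1 (5254), and the accessory subunits NDUFS5 (7447) and NDUFB4 (12498). UQCRC1, the partner of UQCRC2 in the complex III core, ranked 8673. CYCS, cytochrome c itself, ranked 5212; beyond carrying electrons it is known for triggering caspases once released from mitochondria. In complex IV they were the testis isoform COX6B2 (7073), the copper chaperone COX17 (7679) and the assembly factor COX16 (12691). ATP5F1D, the delta subunit of the ATP synthase central stalk, ranked 1232. Of these regions 5 of 11 lay above the midpoint of the osimertinib list, against 34 of 44 for members in both lists. NDUFB4 and COX16 ranked beyond 11621, the length of the vehicle list.

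The 14 members marked with vehicle only included 4 complex IV subunits, COX8A (rank 4635), COX7C (5176), COX6C (7973) and COX7A2 (11122). They also included 3 genes placed with complex IV assembly, namely COX14 (3415), COX7A2L, which joins complexes III and IV into larger assemblies (4620), and COX18, which inserts part of COX2 into the membrane (9619). In complex I they were the accessory subunits NDUFA11 (2474), NDUFB3 (4633), NDUFB7 (5020) and NDUFB9 (8591), the assembly factor NDUFAF8 (5684) and the core subunit NDUFS3 (11308). ATP5MF, subunit f of the ATP synthase, ranked 10874. Of these, 8 of 14 lay above the midpoint of the vehicle list, against 34 of 44 for members in both lists.

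Several of these one-list calls rested on which gene a region was named for. NDUFS6 had its region at chr5:1799470-1801469 with osimertinib, and a vehicle region named for MRPL36 (rank 581) overlapped it. The NDUFAF3 region lay 139 bp from a vehicle region named for DALRD3. The vehicle regions of NDUFAF8, NDUFS3 and ATP5MF lay 29, 430 and 536 bp from osimertinib regions named for TEPSIN, PTPMT1 and PTCD1. The other one-list regions were farther from any region of the other list. With osimertinib only, ATP5F1D and COX6B2 were 2565 and 2389 bp from a vehicle region, and the other 7 of the 11 were more than 10 kb away, CYCS by 142845 bp and NDUFS1 by 72393 bp. With vehicle only, COX14 was 9359 bp away and 10 of the 14 were more than 10 kb away, among them NDUFA11 by 68912 bp and COX7C by 1648873 bp.

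Sets of isoforms of complex IV differ in the tissues that use them. The widely used form had H3K4me3 in both lists for COX4I1, COX6A1 and COX6B1, while COX4I2 (lung and placenta) and COX6A2 (heart and muscle) had none and COX6B2 had it with osimertinib only. COX7A2 and COX8A, also the widely used forms, had it with vehicle only, and COX7A1, COX7B2 and COX8C had none. The COX7A2 region ranked only 11122 of 11621 and lay 5799 bp from the RefSeq start, so by position COX7A2 was in neither list. COX6A1 ranked 3817 with osimertinib and 5016 with vehicle, and COX6B1 ranked 5750 with osimertinib and 7614 with vehicle.

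Position gave a view that does not use the gene names. Of 85 members with a RefSeq start, 67 (78.8%) had an H3K4me3 region within 1 kb of it in either list, against 44.4% of 15843 protein-coding starts. They divided into 11 with osimertinib only, 11 with vehicle only and 45 in both, with 18 in neither. The same classes held 4.70%, 12.5%, 27.2% and 55.6% of coding starts. Among the 35 members with no region under their own name, 28 had a RefSeq start, and 8 of those were covered in both lists by a region named for another gene. These were ATP5F1C (by KIN), ATP5MK (PDCD11), ATP5PB (WDR77), NDUFA2 (IK), NDUFAF5 (ESF1), NDUFB1 (CPSF2), UQCR10 (ZMAT5) and NDUFA7 (RPS28 with osimertinib, AC010323.1 with vehicle). NDUFAF2 and NDUFB8 were covered so with osimertinib alone, and ATP5PO and NDUFA13 with vehicle alone. Of the members marked with osimertinib only, 9 had a RefSeq start and 8 of these kept their class by position, while NDUFAF3 was covered in both lists. NDUFS6 was among these 8 only narrowly, as the vehicle region named for MRPL36 lay 1015 bp from its start. Of those marked with vehicle only, 11 had a start and 8 kept their class, while NDUFAF8 and NDUFS3 were covered in both lists and COX7A2 in neither. Among members with no region under their name, the remaining 16 starts had no H3K4me3 region within 1 kb in either list, among them NDUFA9, NDUFA12, NDUFB10, NDUFS4 and UQCRQ.

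Sharing a promoter with a gene on the other strand was common in the group. A start of another gene that ran the opposite way lay within 1 kb of 32 of 85 member starts (37.6%, interval 27.4% to 48.8%), against 18.3% of coding starts (17.7% to 18.9%). ATP5F1C and KIN start 184 bp apart, NDUFA2 and IK 199 bp, and ATP5PB and WDR77 208 bp. At such a pair, a mark of one gene cannot be told apart from a mark of the other.

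**Figure D3:**
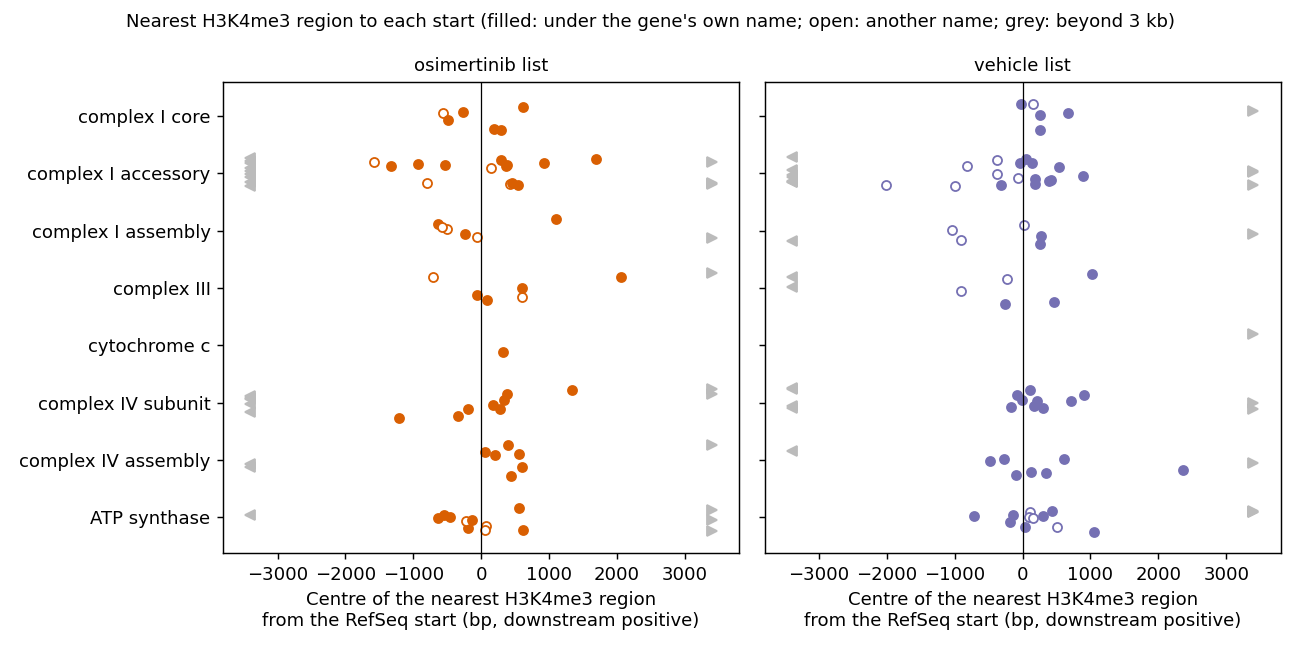
Distance in bp from the RefSeq start of each member to the centre of the nearest H3K4me3 region, with osimertinib on the left and vehicle on the right, by role. Filled points are regions named for the member, open points regions named for another gene and grey arrowheads regions beyond 3 kb; 56 starts with osimertinib and 56 with vehicle had a region reaching within 1 kb, of which 12 with osimertinib and 11 with vehicle were covered only under another name.

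Member regions sat closer to starts than H3K4me3 regions at large. With osimertinib 57 of 76 member regions (75.0%) covered the annotated start, against 49.3% of all regions in that list. With vehicle 59 of 72 (81.9%) did, against 66.7%. All 72 vehicle regions were at promoters, and 6 of the 76 osimertinib regions were not. These 6 were distal regions assigned to ATP5F1B, COX20, COX6A1 and NDUFA1, an exon of COX6B1 and an intron of NDUFAF6, and each of these genes also had a promoter region in both lists. More than 1 region was assigned to 14 members with osimertinib and 10 with vehicle. NDUFA3 had 1 with osimertinib and 4 with vehicle.

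H3K4me1 lay within 1 kb of 5 of 85 member starts in either list (5.88%), against 6.07% of coding starts. By the authors' gene names it was at 9 member promoters. With osimertinib only it was found at 2 members, beside 16.2% of 3420 genes with an H3K4me1 promoter region in either list. With vehicle only it was found at 7, beside 62.4%, and at no member in both lists, beside 21.4%. That 0 of 9 allows a share of up to 33.3%, taking 3 counts as the limit that a count of 0 allows. The vehicle list was the longer, and with equal numbers of the strongest regions from each list there were 2 members with osimertinib only and 2 with vehicle only. The osimertinib members were UQCR10, a small complex III subunit (rank 2916 of 6515), and ATP5PD (4989). The vehicle members were ATP5F1D (3444 of 9761), the iron-sulfur core subunits NDUFS8 (4009) and NDUFS7 (9247), NDUFB7 (6544), COX5A (7176), COX6B2 (8434) and NDUFA4L2, a hypoxia-inducible relative of NDUFA4 (7844). UQCR10 also had distal H3K4me1 regions in both lists, 11728 bp downstream with osimertinib (rank 858) and 10891 and 14206 bp downstream with vehicle (ranks 7135 and 1628).

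ATP5F1D and COX6B2 had H3K4me1 with vehicle only and H3K4me3 with osimertinib only. At both genes the vehicle H3K4me1 region overlapped the osimertinib H3K4me3 region. For ATP5F1D these were chr19:1241333-1243332 and chr19:1242946-1244945, and a vehicle H3K4me3 region named for AC004221.1 lay 952 bp from the first. An osimertinib H3K4me1 region named for AC020922.1 lay 101 bp from the COX6B2 H3K4me1 region. A vehicle H3K4me3 region of that name lay 2784 bp from it. Among the 7 vehicle H3K4me1 members, 2 were thus in the H3K4me3 list with osimertinib only. That class held 5.79% of all 2866 genes with an H3K4me1 promoter region with vehicle. Only 1922 of those 2866 are protein-coding, and 41.9% had no H3K4me3 promoter region, so that share is not a like background. Of the 69 members with H3K4me3 in either list, 15.9% had it with osimertinib only.

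KDM1A was found at 6 member promoters. With osimertinib only there were 5, beside 59.1% of 1761 genes with a KDM1A promoter region in either list. With vehicle only there was 1, beside 33.9%, and there was none in both lists, beside 6.98%. That 0 of 6 allows a share of up to 50.0% by the same limit of 3 counts. The osimertinib list was the longer, and with equal numbers of the strongest regions there was 1 member with osimertinib only (CYCS) and 1 with vehicle only (NDUFA5). By position around RefSeq starts there were 3 with osimertinib only (CYCS, COX17 and COX18) and 0 with vehicle only. Those 3 of 85 starts (3.53%) stand beside 0.827% of coding starts. No interval was computed for a share that rests on 3 starts, so no excess over coding starts is shown. No KDM1A region lay within 1 kb of the RefSeq starts of ATP5F1E, NDUFS4 and NDUFA5. The NDUFS4 region began at chr5:53645623, and its RefSeq start is at 53560639. For NDUFA5 these were chr7:123555443 and 123601651. The authors' annotation placed both of these regions at other starts. CYCS stood far above the other members, at rank 62 of 8882 with osimertinib, with a signal of 3.23. Its KDM1A region, chr7:25122926-25124925, began 324 bp downstream of the start and overlapped its osimertinib H3K4me3 region, chr7:25123937-25125936. The nearest vehicle KDM1A region was 45868 bp away and named for C7orf31.

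The other KDM1A members ranked low. COX18 ranked 4763, COX17 had a pair of regions at 5875 and 6335, ATP5F1E, the epsilon subunit of the ATP synthase, ranked 6619, and NDUFS4, an accessory subunit of complex I, ranked 7368, all with osimertinib. NDUFA5, another accessory subunit, ranked 4413 of 4731 with vehicle. The KDM1A region of ATP5F1E and the poorer ranked one of COX17 overlapped an osimertinib H3K4me3 region named for the same gene, the better ranked one of COX17 lay 1918 bp from it, and the COX18 region overlapped its vehicle H3K4me3 region. CYCS and COX17 had H3K4me3 with osimertinib only, COX18 with vehicle only, ATP5F1E in both lists and NDUFS4 in neither. Thus 4 of the 5 osimertinib KDM1A members had H3K4me3 in some list, beside 69 of all 104 members (66.3%). Of all 1164 genes with a KDM1A promoter region with osimertinib, 73.5% had no H3K4me3 promoter region. Only 530 of those 1164 are protein-coding, so that share is not a like background.

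**Figure D4:**
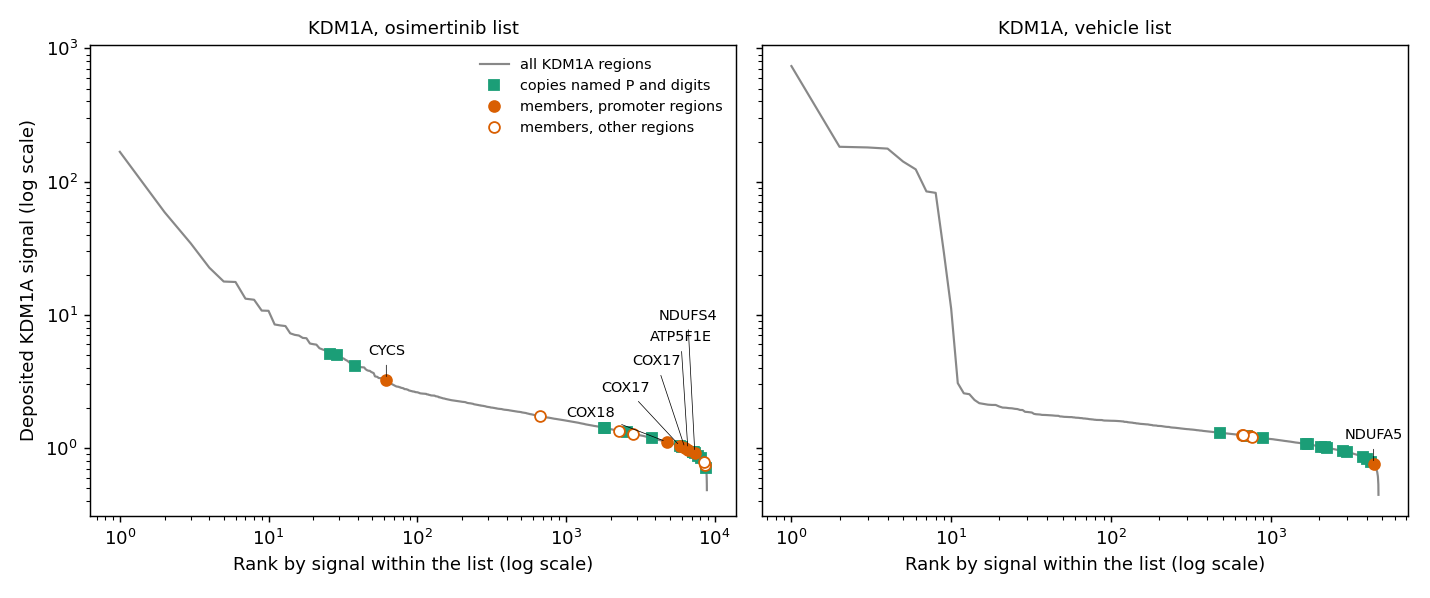
KDM1A signal of every region against its rank within the list, both on log scales, with osimertinib on the left and vehicle on the right. Filled circles are promoter regions of members, open circles their other regions and squares regions of copies named with P and digits; CYCS lies at rank 62 with osimertinib, near 3 copies at ranks 26, 29 and 38, and the other member promoters lie at rank 4413 or poorer.

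Outside promoters, KDM1A regions were assigned to COX7B2, a relative of COX7B, and to an intron of NDUFA10 (rank 8651 with osimertinib). COX7B2 had 4 regions in each list, at best rank 667 with osimertinib and 666 with vehicle. Of these 1 pair overlapped between the lists and another lay 184 bp apart. COX7B2 also had the single H3K9me3 region of the group, in an intron with vehicle (rank 1305 of 2749), 2343 bp from a vehicle KDM1A region.

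Copies of the members, with names that end in P and digits, held more KDM1A regions than the members themselves. With osimertinib 16 KDM1A regions were assigned to 13 copies, against 11 regions at 7 members, and with vehicle 13 regions were assigned to 12 copies, against 5 regions at 2 members. How many copies are annotated was not counted, so these numbers give no share per gene and show no preference for copies. Of the copies' regions 12 were at promoters with osimertinib and 2 with vehicle. ATP5MGP2 (rank 26), NDUFV2P1 (29) and UQCRBP1 (38) ranked above CYCS in the osimertinib list, and CYCSP39 ranked 1825. In the H3K4me3 lists the copies held 9 regions with osimertinib and 5 with vehicle, against 76 and 72 for the members. The sources used here do not say how reads that fit both a gene and its copies were placed, and its part in these regions was not tested. Over the whole KDM1A lists 19.1% of regions with osimertinib and 19.3% with vehicle were named for a RefSeq pseudogene, against 4.89% and 2.07% of H3K4me3 regions.

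H3K9me3 promoter regions were assigned to 0 of 104 members in either list, which allows a share of up to 2.88% by the limit of 3 counts. By position it was at 0 of 85 member starts, beside 1.09% of coding starts, so a count of 0 is near the background. Among 738 genes with an H3K9me3 promoter region in either list, 39.3% had it with osimertinib only, 30.2% with vehicle only and 30.5% in both.

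Other genes of the pathway, outside the name rule, were examined as a list of 47 that holds complex II, further assembly factors and known regulators. H3K4me3 promoter regions were assigned to 22 of them, 17 in both lists, 5 with vehicle only and none with osimertinib only. Over all genes with such a region the shares were 55.2%, 27.5% and 17.3% in that order. Over coding genes they were 61.0%, 27.5% and 11.6%. No interval was computed for these 22 genes, so the count of none with osimertinib only shows no difference from those shares. The 5 with vehicle only included SDHC, a membrane anchor of complex II (rank 10862), and SCO1, a copper chaperone of complex IV (3468). The others were the complex I assembly factors ECSIT (9441), FOXRED1 (4723) and TMEM126B (11164). SDHA, the flavoprotein of complex II, ranked 471 with osimertinib and 257 with vehicle. The genes for the regulators NRF1 (928 with osimertinib, 1729 with vehicle), YY1 (480 with osimertinib, 573 with vehicle) and ESRRA (1078 with osimertinib, 983 with vehicle) were marked in both lists. H3K4me1 promoter regions were assigned to 4 of the 47, UQCC1, ATPAF2, PPARGC1B and ESRRA, all with vehicle only. That class held 62.4% of all genes with an H3K4me1 promoter region in either list. KDM1A and H3K9me3 promoter regions were assigned to none of the 47 in either list. Within 1 kb of RefSeq starts, 0.827% of coding starts had a KDM1A region and 1.09% an H3K9me3 region. The 47 were counted by gene name within 3 kb, so these shares are not a like background. By gene name, 530 coding genes had a KDM1A promoter region with osimertinib and 336 with vehicle. Whether either absence differs from other genes was not tested.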

How the data were processed

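Binding libraries of 4 targets in PC9 cells with osimertinib or DMSO were analysed, 1 per target and treatment (8 of the 16 samples of the series); 6 RNA and 2 IgG samples were not analysed here. Groups came from sample titles. The submitters' processing notes name Bowtie2 2.3.4, HISAT2, featureCounts and GRCh38 (hg38) without a role. The sources used here name no peak caller, threshold or control, and do not say how multiply placed reads were handled. The deposited table of each library lists 2 kb regions with the authors' signal, gene and annotation, per the file headers. The signal is a height per region with no stated scaling, so it was used only for ranks within a list. Read depth is unknown.

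Members were matched by name. A gene was called in a list when it had a region annotated within 3 kb of a start, and its strongest such region gave its rank. RefSeq starts of GRCh38.p14 with 1000 bp on each side served for position, with at least 1 bp of overlap. Of the 104 members 85 matched a RefSeq promoter, 2 of them under a newer symbol. The counting was tested on simulated data. Alternatives were promoters within 1 kb, any assigned region, the stronger part of each list, equal list lengths, regions within 1 kb counted as shared, position, and the region nearest the start.

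Genes were named by a rule: all members with a KDM1A, H3K4me1 or H3K9me3 promoter region, up to 15 with H3K4me3 in 1 list only, the 8 best and 4 poorest by mean H3K4me3 percentile in both, and the isoform sets. Other genes named were chosen after their values were seen. The leukocyte marker list is not reported here. The members and lists were chosen with earlier results of these data known. Python 3.11.15, pandas 2.3.3, numpy 2.4.6, scipy 1.17.1 and matplotlib 3.10.9 were used.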

Additional observations from a re-analysis of the deposited data

How the results depend on the processing

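Of 76 combinations of a result and an alternative, 60 gave a count within 1.5 times the reported one or an unmoved median, and 16 moved. The 60 include counts of 0 that stayed at 0, most of them for H3K9me3. Alternatives that only leave regions out could not move these, so the 60 is no measure of robustness. With only the stronger part of each list (signal above the midpoint), 29 members kept H3K4me3 in both lists. The other 15 that moved concern counts of 7 or fewer. For H3K4me1, any assigned region gave 1 with osimertinib only and 1 in both (UQCR10); the stronger part gave 1 with osimertinib only and 2 with vehicle only; equal list lengths gave 2 with vehicle only; regions within 1 kb counted as shared gave 1 in both (COX6B2); position gave 1 with osimertinib only and 4 with vehicle only. For KDM1A, any assigned region gave 1 in both (COX7B2); the stronger part gave 1 with osimertinib only (CYCS) and 0 with vehicle only; equal list lengths gave 1 with osimertinib only (CYCS); position gave 3 with osimertinib only (CYCS, COX17 and COX18) and 0 with vehicle only. For H3K9me3, any assigned region gave 1 with vehicle only (COX7B2). Beyond what the alternatives themselves leave out, the cause was not tested.

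The H3K4me3 counts with osimertinib only and with vehicle only stayed within 1.5 times of 11 and 14 under each alternative, but the genes differed: the stronger part of each list shared 5 of its 10 osimertinib-only and 8 of its 13 vehicle-only genes with the reported ones, and position shared 8 of 11 in each. No paired analysis was possible because each target and treatment had 1 library. For the same reason no library could be left out, and a region missing from a list may lie just under a threshold that is not known.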
